A study of Mus musculus with 16 samples.

Results

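The comparison described here is that of host (murine) transcripts between LA-N-1 xenografts excised after shorter cinacalcet treatment and xenografts given vehicle. It takes in 12 of the 16 tumors of the series. The cinacalcet tumors are those titled CaSR 4, CaSR 5, CaSR 7 and CaSR 8 (4 tumors, called cinacalcet tumors 4, 5, 7 and 8), and the controls are those titled Vehicle 5 to Vehicle 12 (8 tumors, called vehicle tumors 5 to 12). CaSR 6 (cinacalcet tumor 6) was left out, following the methods, and was added back only as a check, and the 3 tumors of prolonged treatment (CaSR 9, CaSR 10 and CaSR 11) enter only where they are named.

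LA-N-1 is a human neuroblastoma line with amplified *MYCN*. The cells were injected under the skin of female athymic Nude-Foxn1 nu/nu mice aged 4 to 6 weeks, a strain that lacks a thymus and so most mature T cells but keeps B cells, natural killer cells and macrophages. Once tumors measured 7 mm a side, mice received vehicle or cinacalcet by gavage at 10 mg/kg/day, 6 days per week in the methods and daily in the labels, until tumors reached 2 cm3, and the arrays hold the last 8 tumors excised in each arm. Treatment length was therefore not assigned, and it cannot be told apart from the growth rate of the tumor. The RNA of each tumor was read on Mouse Gene 2.1 ST arrays, whose probes are meant for mouse transcripts.

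The calcium-sensing receptor (CaSR) reads extracellular calcium through G proteins and controls the release of parathyroid hormone, and cinacalcet is an allosteric activator of it. In a xenograft the tumor cells are human, whereas the vessels, pericytes, fibroblasts, macrophages and other immune cells are supplied by the mouse. A murine array of such a tumor thus reads mainly the microenvironment, together with whatever skin, fat and muscle is excised with the mass. Fibroblasts lay down the collagenous matrix, endothelial and mural cells build the vessels, and Notch ligands, semaphorins and vascular growth factors are among the signals that pass between these cells.

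The authors deposited log2 signals after Robust Multi-array Average (RMA) normalization for 40543 probe sets, of which 23448 name a single gene. The medians of the arrays ran from 1.59 to 1.76 for shorter cinacalcet tumors and from 1.59 to 1.85 for vehicle tumors. Pearson correlations between pairs of the 12 arrays over all probe sets lay between 0.869 and 0.954. A mean over 32 markers of fibroblasts, macrophages, endothelial and mural cells, called the host score, was 5.50 ± 0.65 (SD, n = 4) in shorter cinacalcet tumors and 5.30 ± 0.73 (SD, n = 8) in vehicle tumors, and ranged from 3.93 (vehicle tumor 5) to 6.11 (vehicle tumor 6). The groups thus overlapped in their host cell content, and fewer cells of a type and less RNA per cell cannot be told apart in any result below. Olfactory receptor genes, which these tissues are not known to use, had a mean signal of 0.88 to 1.09 in shorter cinacalcet tumors and of 0.87 to 1.13 in vehicle tumors. This mean over 1105 genes is called the silent level below. Single silent genes can read higher, since Olfr98 and Olfr1487 passed a signal filter whose lowest kept mean was 1.66. A gene near such a signal is thus not shown to be expressed. Murine markers of the neuroblast lineage (such as Th and Dbh, of catecholamine synthesis) averaged 2.10 to 2.44 and 1.95 to 2.53. Since no sample held only human cells, the binding of human transcripts to single probe sets was not tested.

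Probe sets of low signal and low variability were removed as the methods describe, which left 10135, and the groups were compared with limma. No gene separated the groups after correction for the number of tests. At an unadjusted p of 0.01 or less, 44 probe sets differed (0.434%), 20 higher (0.197%) and 24 lower (0.237%) in shorter cinacalcet tumors, and 41 of these 44 are unnamed here, 2 name several genes and 1, Adgrl2, names a single gene. At an unadjusted p under 0.05 there were 259 (2.56%), 109 higher and 150 lower. At an adjusted p under 0.05 limma called 0 probe sets, and the smallest adjusted p was 0.958. The ordinary linear model with no moderation of the variances called 1, an unnamed probe set (17210303) at 2.34 to 2.69 in shorter cinacalcet tumors and 3.26 to 3.85 in vehicle tumors (adjusted p = 0.0317). Its limma adjusted p was 0.999995 over the same filtered probe sets and 0.115 with no filter.

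Among the 5293 kept probe sets that name 1 gene, 57 had an unadjusted p under 0.05 (1.08%), 30 higher (0.567%) and 27 lower (0.51%), and the adjusted p of each was at least 0.999995, which holds for every single-gene probe set of this fit and is not repeated at each gene. The groups did not overlap at all for 2 of them on the higher side (0.0378%), Adgrl2 and Arrdc3, and for 3 on the lower side (0.0567%), Prrx2, Olfr98 and the gene model Gm19784. Arrdc3 and Gm19784 are named only because of these counts, after their values were seen.

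**Figure D1:**
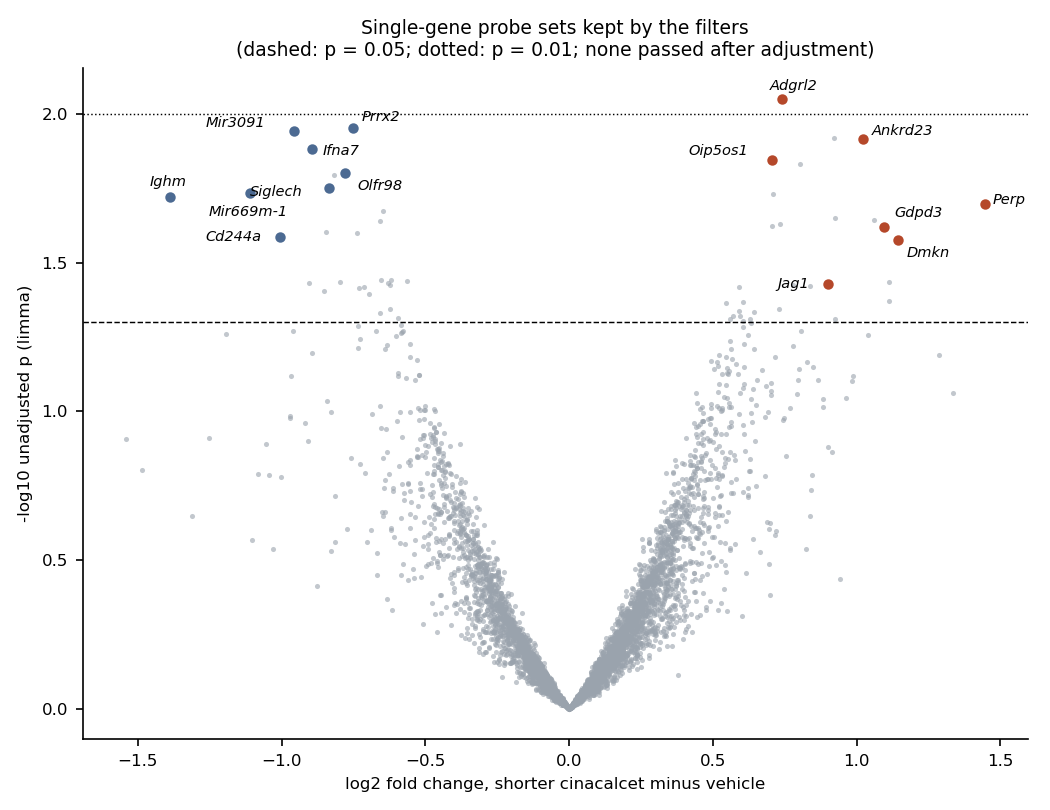
Log2 fold change (x axis, shorter cinacalcet minus vehicle) against the unadjusted limma p (y axis, −log10 scale) for the 5293 single-gene probe sets kept, each a gray point, with named genes in red where higher and blue where lower. Adgrl2, at a fold change of 0.74, is the only point above the upper line, and the points of Perp (1.45) and Ighm (-1.39) lie lower.

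The 12 single genes of smallest p on the higher side were led by Adgrl2, a latrophilin, one of the adhesion G protein-coupled receptors. Its signal was 4.64, 4.95, 5.00 and 4.50 in cinacalcet tumors 4, 5, 7 and 8, and ran from 3.56 to 4.31 with a median of 4.09 in vehicle tumors. Each of the 4 shorter cinacalcet tumors lay above all 8 vehicle tumors. The log2 fold change was 0.74 (standard error 0.25, limma unadjusted p = 0.00885), and the exact two-sided permutation test over the 495 arrangements of the tumors gave p = 0.00202 before any adjustment, the smallest that 4 against 8 tumors allow. Cinacalcet tumor 6, left out of this fit, stood at 4.89 and the prolonged tumors ran from 3.73 to 5.04.

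Arrdc3, an alpha-arrestin that acts in the trafficking of membrane receptors, had signals of 5.89, 5.87, 6.03 and 5.87 in cinacalcet tumors 4, 5, 7 and 8 and of 4.68 to 5.86 (median 5.29) with vehicle. The 4 treated tumors were close together (SD 0.08) and only just above the highest vehicle tumor, whereas the vehicle tumors spread more widely (SD 0.41). The log2 fold change was 0.59 (standard error 0.27). Cinacalcet tumor 6, at 5.04, lay among the vehicle tumors, and with it included the value was 0.42.

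Oip5os1, a long noncoding RNA also known as Cyrano, stood at 3.46, 3.65, 4.20 and 4.21 in cinacalcet tumors 4, 5, 7 and 8 and at 2.74 to 3.50 (median 3.16) in vehicle tumors. Tumors 5, 7 and 8 were above every vehicle tumor and tumor 4 was just below the highest one. Ptprk, a receptor tyrosine phosphatase of cell contacts, was at 3.40, 3.28, 3.80 and 3.43 against 2.40 to 3.38 (median 2.69), and cinacalcet tumor 6 was at 2.64, near the vehicle median. Gid4, the substrate receptor of a ubiquitin ligase, had a log2 fold change of 0.73 (standard error 0.29), with 3 of the 4 treated tumors above the highest vehicle tumor. Dact3, an inhibitor of Wnt signaling, was at 1.996, 3.06, 3.02 and 2.22 against 1.36 to 2.27 (median 1.64). The 2 tumors that carried the difference in Dact3 were 5 and 7, and without them its log2 fold change of 0.80 was 0.33. The small nucleolar RNA Snora31, which guides pseudouridylation, had a log2 fold change of 1.06 (standard error 0.42), and all 4 treated tumors (2.67 to 3.69) lay within the vehicle range of 1.24 to 3.79.

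Gdpd3, a lysophospholipase D of lipid metabolism, had signals of 4.68, 4.05, 4.64 and 3.69 in cinacalcet tumors 4, 5, 7 and 8 and of 2.46 to 4.94 (median 2.74) in vehicle tumors. All 4 treated tumors were above the vehicle median and all were below vehicle tumor 9, the highest of the 12. The log2 fold change was 1.10 (standard error 0.44), and 1.35 without vehicle tumor 9.

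On the lower side the smallest p belonged to Prrx2, a homeobox factor of mesenchymal cells. It was at 2.19, 1.62, 2.16 and 1.80 in cinacalcet tumors 4, 5, 7 and 8 and at 2.31 to 3.23 (median 2.69) in vehicle tumors. All 4 treated tumors were below all 8 vehicle tumors, by a log2 fold change of -0.75 (standard error 0.26). Cinacalcet tumor 6, at 2.99, was above the vehicle median, and with it in the group the value was -0.54. 

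Siglech, a lectin of plasmacytoid dendritic cells, was at 1.02, 1.71, 1.22 and 0.67 in the same order against 1.16 to 2.71 (median 2.04), close to the level of the silent olfactory receptors in 3 of the 4 treated tumors. The groups overlapped through tumors 5 and 7. Ifna7, a type I interferon, was at 1.19, 1.35, 1.56 and 2.66 against 1.96 to 3.16 (median 2.61), so that tumor 8 alone stayed within the vehicle range. Dennd1c, a regulator of Rab GTPases, was at 3.82, 2.37, 3.07 and 2.71 against 3.22 to 4.09 (median 3.98), and here tumor 4 was the one within the range. Gdf3, a ligand of the TGF-beta superfamily, had a log2 fold change of -0.66 (standard error 0.26), with tumors 5, 7 and 8 between 2.46 and 2.55 and vehicle tumors from 2.80 to 3.74. Cd244a, a receptor of natural killer cells, was at 1.93 to 2.26 in all 4 treated tumors and at 1.81 to 4.28 (median 2.90) in vehicle tumors, a log2 fold change of -1.01 (standard error 0.41). Syne1, which tethers the nucleus to the cytoskeleton, was lower by both of its probe sets, at -0.65 and -0.91. The olfactory receptor Olfr98 (-0.78), the olfactory receptor Olfr1487 (-0.85) and the nonclassical MHC gene H2-M10.1 (-0.74) complete this side together with 2 microRNAs and Ighm.

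**Figure D2:**
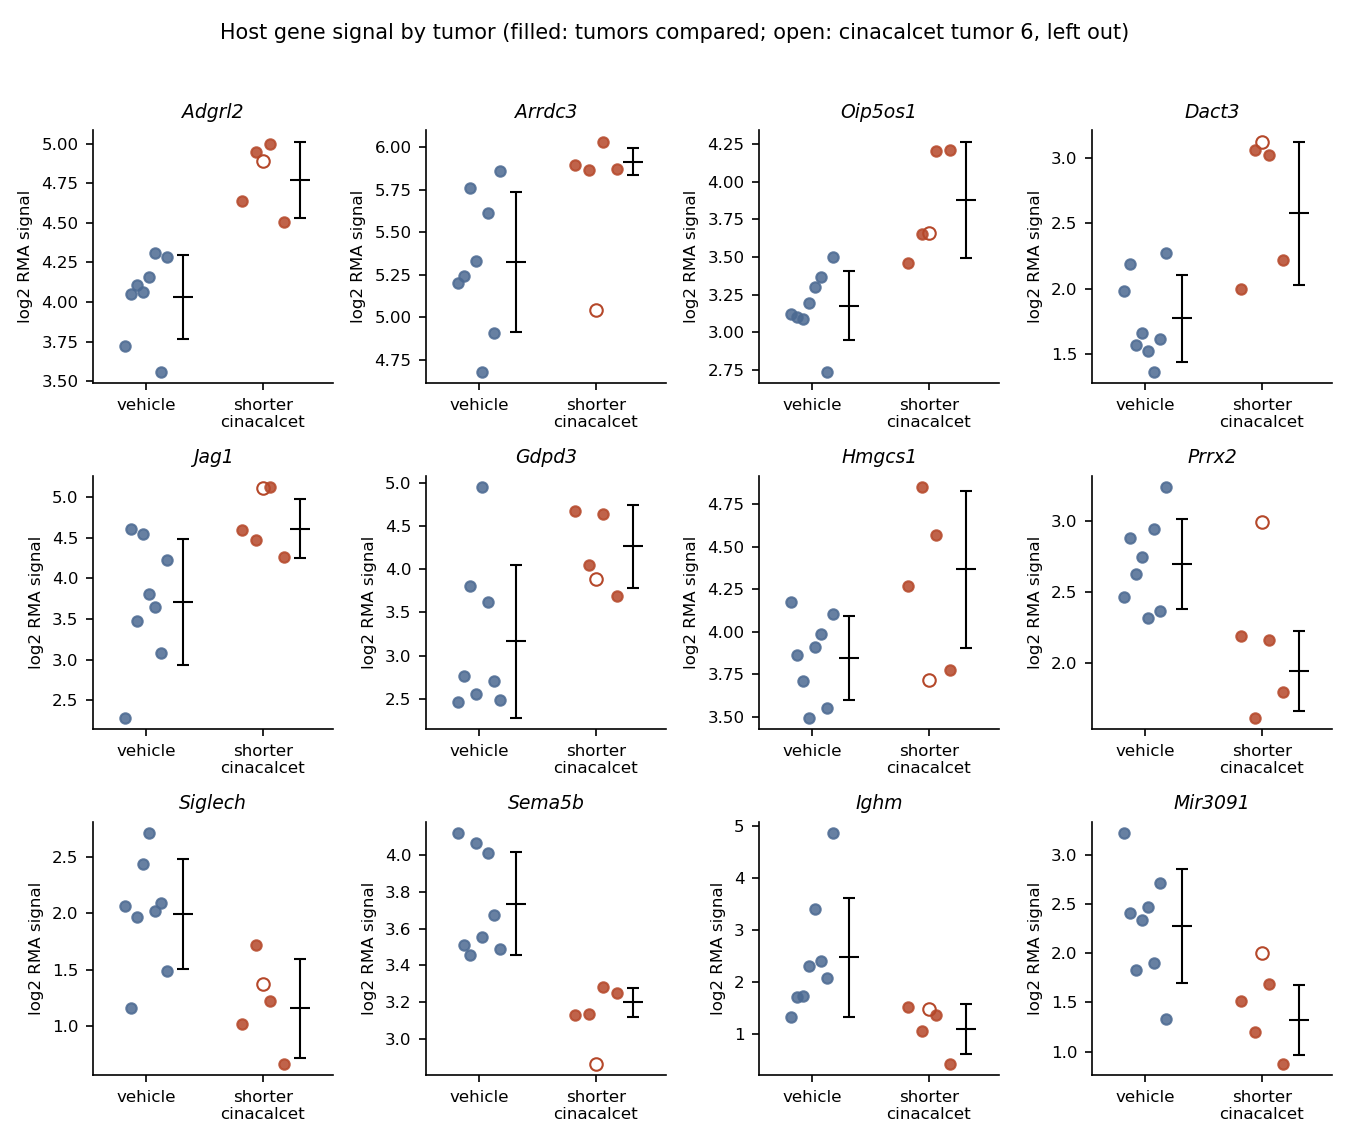
Log2 RMA signal (y axis) of 12 genes in vehicle tumors (blue, n = 8) and shorter cinacalcet tumors (red, n = 4), with the mean and SD of each group in black and cinacalcet tumor 6, left out of the comparison, as an open circle. The groups are fully apart for Adgrl2, Arrdc3, Prrx2 and Sema5b, and overlap for the other 8 genes.

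MicroRNA genes were among the leading ones on both sides, and the mature sequences of those matched in the RefSeq table (build GRCm38.p6) are shown because they identify what a probe set could stand for. The seed, bases 2 to 8, which pairs with target messenger RNAs, is in capitals.
mmu-miR-3091-5p: cAUGGGUCugguugggcccgc
mmu-miR-3091-3p: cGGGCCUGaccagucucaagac
mmu-miR-1938: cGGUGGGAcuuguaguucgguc
mmu-miR-200b-3p: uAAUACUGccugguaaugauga
mmu-miR-200b-5p: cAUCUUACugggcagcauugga
mmu-miR-491-5p: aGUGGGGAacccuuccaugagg
mmu-miR-491-3p: cUUAUGCAagauucccuucuac
The 7 seeds differ from each other. Mir3091 lies on chromosome 2, with its 5p arm at chr2:180257547-180257567 on the plus strand. Mir1938 lies on the minus strand at chr12:40222782-40222803, the 3p arm of Mir200b at chr4:156055685-156055706 on the minus strand and the 5p arm of Mir491 at chr4:88122057-88122078 on the plus strand. The array does not separate the arms of a precursor.

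Mir3091 was at 1.51, 1.20, 1.69 and 0.88 in cinacalcet tumors 4, 5, 7 and 8 against 1.33 to 3.22 (median 2.38), a log2 fold change of -0.96 (standard error 0.33). Tumors 5 and 8 were below every vehicle tumor. Mir669m-1 was at 0.97 to 1.25 in the treated tumors and at 0.95 to 3.19 (median 2.51) in vehicle tumors, which themselves ran from the silent level upward, for a value of -1.11. Mir1938 was the only microRNA among the 12 filtered genes of smallest p on the higher side. It was at 1.79, 2.74, 2.20 and 2.80 against 1.30 to 2.31, with cinacalcet tumor 6 at 1.36. Mir200b, which targets the Zeb repressors of epithelial genes, was removed by the filter, and in the fit without it stood at 0.65 to 0.88 against 1.02 to 1.74. These 4 treated tumors were below all 8 vehicle tumors, and their signals were at or below the level of the silent olfactory receptors. Mir491 was at 1.17 to 1.82 against 0.42 to 1.39. Of 483 microRNA genes measured, 12 were higher (2.48%) and 10 lower (2.07%) at an unadjusted p under 0.05 in the fit with no filter, in which 1.66% of all genes were higher and 1.16% lower, and the median log2 fold change was -0.03.

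The groups of genes below were read from the fit with no filter, taking 1 probe set a gene, that of highest mean signal, since the filter had removed many of their members. Over the 22179 genes so read, 626 differed (2.82%), 369 higher (1.66%) and 257 lower (1.16%), at an unadjusted p under 0.05, the sense in which members of a list are called higher or lower below, the median log2 fold change was 0.0049, and groups did not overlap for 38 genes on the higher side (0.171%) and 39 on the lower side (0.176%). None of these genes passed after adjustment, with a smallest adjusted p of 0.999978 from limma. No list was tested as a set. Leaving out 1 tumor changed the sign of the median in 28 of 45 lists and changed the sign or moved it by over 1.5 times in 43.

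The comparison asked first about vessels and matrix, for which a set of host genes had been picked for RT-qPCR. The list read here held 13 genes, all measured on the array. Among them were Tbp, the study's normalizing gene, and Flt1, Tagln and Tagln2, for which the paper tabulates no host RT-qPCR result. Cd68, for which it does, was not in the list. Of the 13, 11 had a log2 fold change above 0, with a median of 0.16 (-0.07 without cinacalcet tumor 7). At an unadjusted p under 0.05, 1 was higher. That gene was Tie1, an endothelial receptor kinase, at 3.50, 3.53, 5.06 and 3.75 in cinacalcet tumors 4, 5, 7 and 8 against 3.07 to 3.60 (median 3.35). Tumor 7 alone was far above the rest, and with the filter the interval of its log2 fold change of 0.62 was -0.02 to 1.26. The other endothelial receptors had intervals that spanned 0, with Kdr (a VEGF receptor) at 0.24 (95% interval -0.47 to 0.94), Flt1 (a VEGF receptor) at 0.32 (-0.36 to 1.01) and Cdh5 (the cadherin of endothelial junctions) at 0.16 (-0.63 to 0.95). Angpt2, a ligand of the Tie receptor system, was at 0.14 (-0.79 to 1.06). The mural gene Acta2 was at 0.19 (-0.78 to 1.15), the fibroblast receptor Pdgfra at 0.40 (-1.10 to 1.90), Tgfb1 at -0.01 (-0.83 to 0.80) and the protease Mmp9 at -0.27 (-0.98 to 0.43). The interval of Pdgfra held a change of 1 log2 unit in both directions, whereas those of Kdr, Cdh5, Tgfb1 and Mmp9 held it in neither.

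**Figure D3:**
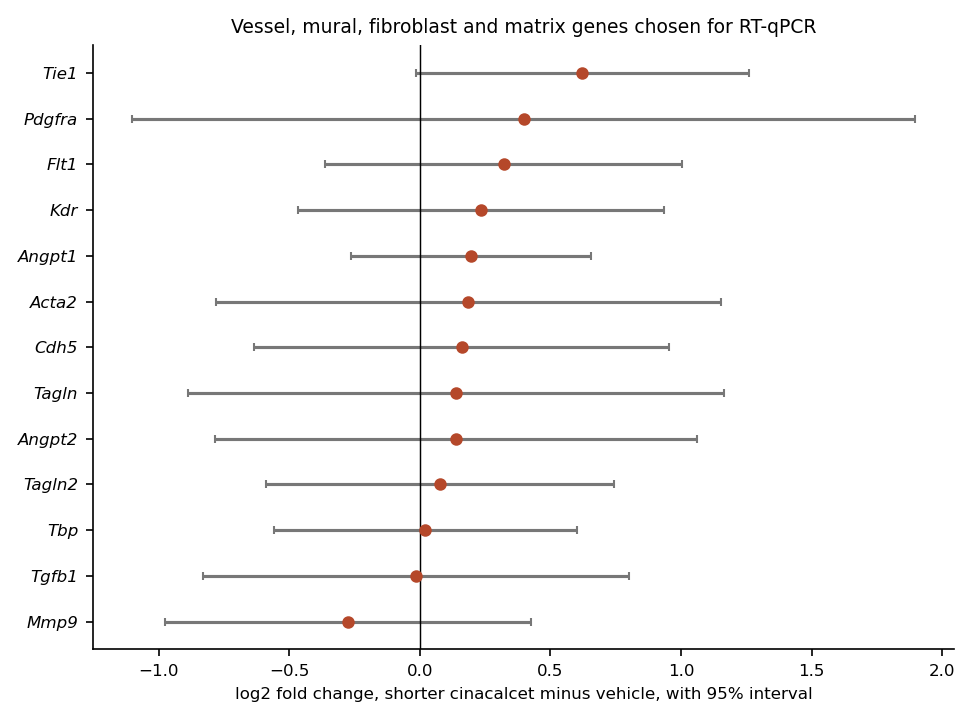
Log2 fold change (x axis, shorter cinacalcet minus vehicle, n = 4 and 8 tumors) with its 95% interval from limma for the murine genes of the RT-qPCR list (y axis). The list holds the normalizing gene Tbp and leaves out Cd68. Every interval spans 0, and that of Pdgfra, from -1.10 to 1.90, is the widest.

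Fibrillar collagens and their processing enzymes were spread around 0, with 16 of 22 above it, a median of 0.09 and none at an unadjusted p under 0.05 in either direction. Their mean signal was 6.15, 5.07, 6.18 and 5.74 in cinacalcet tumors 4, 5, 7 and 8 and 4.39 to 6.66 (median 5.83) with vehicle, so that the treated tumors all lay inside the vehicle range. Without both tumors numbered 7 the median was -0.12. Col5a2 was at 4.81 to 6.20 against 2.80 to 6.46 and Col3a1 at 6.40 to 8.52 against 4.30 to 8.53. Pcolce2, which enhances the trimming of procollagen ends, was picked after its values were seen because its groups did not overlap, at 3.59, 3.57, 3.54 and 3.31 against 2.70 to 3.14 (log2 fold change 0.58, standard error 0.13, in the fit with no filter). Basement membrane genes (16 of 21 above 0) had a median of 0.09, which was 0.24 without cinacalcet tumor 5 and -0.03 without cinacalcet tumor 7, and included Nid2, a linker of laminin and collagen, at 0.49 (standard error 0.30). Among matrix proteases and inhibitors 1 of 19 was higher, Mmp11, a stromal protease, at 2.35, 2.63, 3.04 and 2.35 against 1.95 to 2.73. Mmp2, a gelatinase of fibroblasts, had a log2 fold change of 0.84 with a standard error of 0.61. Of 22 genes of coagulation and fibrinolysis, 0 were higher or lower, and the largest by p were the fibrinogen chain Fgb (0.20) and the plasminogen activator Plau (0.31).

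TGF-beta signaling had 2 of 20 genes higher (10%, beside 1.66% of all genes). They were Smad2, a transducer of the receptor, at 0.35 and Tgif1, a co-repressor of Smad proteins, at 0.44. Tgif1 is also among the genes the paper named from these arrays. The list median of 0.12 was -0.05 without both tumors numbered 7. Fibroblast markers had a median of 0.36, which was 0.04 without vehicle tumor 5, the vehicle tumor of lowest host score. Endothelial markers had a median of 0.12 and mural markers one of 0.18, and both were below 0 (-0.12 and -0.14) without both tumors numbered 7.

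Notch and guidance genes were the next question. Jag1, a Notch ligand of vessels, was at 4.59, 4.47, 5.12 and 4.26 in cinacalcet tumors 4, 5, 7 and 8 and at 2.29 to 4.60 (median 3.73) with vehicle. Tumor 7 was above every vehicle tumor, and tumors 4, 5 and 8 were in the upper part of the vehicle range. The log2 fold change was 0.90 (standard error 0.40; exact permutation test, two-sided, p = 0.0626 before adjustment), and 0.70 without vehicle tumor 5. Jag1 was the 1 of 23 Notch pathway genes at an unadjusted p under 0.05. Jag2, the other ligand of this type, was at 0.43, the transcription factor Rbpj at 0.31 and the receptor Notch1 at 0.28, and the list median of 0.13 was 0.0066 without both tumors numbered 7.

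Of 31 semaphorins, plexins and neuropilins, none was higher and 3 were lower (Sema4b, Sema5b and Plxnb3), while 22 of 31 had a value above 0. Sema5b, a transmembrane semaphorin, was at 3.13, 3.14, 3.28 and 3.25 in cinacalcet tumors 4, 5, 7 and 8 and at 3.46 to 4.12 (median 3.61) in vehicle tumors. Plxnb3, a receptor of semaphorins, was at 1.25 to 1.42 against 1.50 to 2.40, not far above silent genes. In both the groups did not overlap, which makes 2 of 31 genes on the lower side, beside 39 of all 22179 genes (0.176%). Sema5b was named by the paper from these arrays, so this count is not independent of the tumors described. Sema4b was at 2.19, 2.10, 2.43 and 2.15 against 2.33 to 2.95, with tumor 7 just inside the vehicle range. Nrp2, a co-receptor for semaphorins and VEGF, had a log2 fold change of 0.51 (standard error 0.32), with only tumor 4 (6.63) above the highest vehicle tumor (5.86).

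A list of 13 genes named in the paper from these murine arrays had a median of 0.51, with 8 higher and 2 lower at an unadjusted p under 0.05. These genes were chosen on tumors that include the 4 described here, so the counts are not independent evidence of a direction. Plekhg1 was at 3.38, 3.06, 4.10 and 3.29 against 2.44 to 3.28, and the zinc finger gene Zfp935 was at 1.42 to 2.24 against 0.41 to 1.78. Rab3gap2 (0.46), Chsy1, a chondroitin synthase (0.46), and Zfp719 (0.52) were the other higher ones beside Jag1, Gdpd3 and Tgif1. Spcs3, a subunit of signal peptidase, was at 0.55 (standard error 0.31), and the acyl-CoA thioesterase Acot10 was at -0.53 (standard error 0.30).

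In prolonged tumors, which were set against the same 8 vehicle tumors, Gdpd3 had a log2 fold change of 1.79, Jag1 of 0.84, Nrp2 of 0.99 and Sema5b of -0.44. For Adgrl2 the value was 0.30, for Oip5os1 0.08, for Dact3 0.54 and for Prrx2 -0.51. The prolonged and the shorter tumors were also compared directly, in a fit of the 3 groups. At an unadjusted p of 0.01 or less 96 of 10135 probe sets differed (0.947%), 80 higher (0.789%) and 16 lower (0.158%) in prolonged tumors, and limma called 0 after adjustment. Without prolonged tumor 10 there were 28, 27 of them higher and 1 lower. Ighm, the heavy chain of immunoglobulin M, had a mean 3.03 higher in prolonged tumors (limma adjusted p = 0.812), which ran from 1.42 to 8.25 and so overlapped the 0.44 to 1.52 of shorter tumors, and Perp had a log2 difference of -1.71 (limma adjusted p = 0.812). For Adgrl2 the difference was -0.44 and for Jag1 -0.06.

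Lipid synthesis genes held a small number of members that were higher. Of 19 genes of cholesterol synthesis, 3 were higher (15.8%, beside 1.66% of all genes) and none lower. The list median was only 0.03, and -0.0081 without vehicle tumor 6. Hmgcs1, the synthase at the head of the mevalonate pathway, was at 4.27, 4.85, 4.57 and 3.77 in cinacalcet tumors 4, 5, 7 and 8 against 3.49 to 4.17 (median 3.88). Insig1, which holds the sterol-regulated factors SREBP in the endoplasmic reticulum, was at 4.20, 4.71, 5.01 and 4.23 against 3.42 to 4.58 (median 3.99). Msmo1, an enzyme that removes methyl groups from sterols late in the pathway, was at 3.39, 3.33, 3.60 and 3.10 against 2.79 to 3.21 (median 2.97). In Hmgcs1 and Msmo1 tumor 8 lay within the vehicle range and the other 3 above it, and in Insig1 only tumors 5 and 7 lay above it. Cinacalcet tumor 6 was within the vehicle range of Hmgcs1 (3.72) and Insig1 (4.15) and below that of Msmo1 (2.66). Fdft1, which makes squalene, went the other way, at -0.35 (standard error 0.18). Among 24 genes of fatty acid metabolism 3 were higher (12.5%, beside 1.66% of all genes), Fads1, Gdpd1 and Gdpd3. Gdpd3 is also among the genes the paper named from these arrays. The list median of 0.13 was 0.03 without cinacalcet tumor 7. Fads1, a desaturase of polyunsaturated fatty acids, was at 5.42, 5.35, 5.32 and 5.42 against 4.85 to 5.34 (median 5.06), with an SD of 0.05 in treated tumors.

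SREBP factors bind sterol elements, and the letters TCACNCCAC were searched on both strands of 32851 RefSeq promoter windows that run from 250 bases before to 50 bases after each start (GRCm38.p6). They were found in 408 windows (1.24%). Of 17 cholesterol genes with a window, 1 held them, Hmgcs1, whose stretch at chr13:119690204-119690232 on the plus strand is shown with the match in capitals, since it is the only gene of the list with a match.
Hmgcs1: cgtcaccgtcTCACCCCACttcccaggtc
The match begins 137 bases before the start. The windows of Insig1 and Msmo1 do not hold these letters, and binding of the factors was not measured.

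Genes of protein translocation into the endoplasmic reticulum, signal peptidase and early secretory traffic had 30 of 37 values above 0, with a median of 0.13 (0.07 without cinacalcet tumor 4 and 0.26 without cinacalcet tumor 8) and none at an unadjusted p under 0.05. The nearest were Tmed9, a cargo receptor, at 0.53 (standard error 0.30), and Spcs3, above. Chaperones and genes of the unfolded protein response had a median of 0.05, which was -0.08 without cinacalcet tumor 4 and 0.16 without cinacalcet tumor 5, and the stress sensor Ern1 stood at -0.39 (standard error 0.21). Genes of hypoxia and glycolysis had 17 of 21 above 0 (median 0.14, but -0.03 without cinacalcet tumor 4), and the 1 at an unadjusted p under 0.05 was the hexokinase Hk1, at 4.65, 3.88, 3.95 and 4.19 against 3.23 to 3.98. Of 21 genes of calcium sensing and calcium hormones none was higher or lower, with a median of -0.02 that was 0.02 without cinacalcet tumor 8. None of 24 cell cycle genes was higher or lower, with 9 above 0 and a median of -0.11, which was -0.20 without cinacalcet tumor 4 and -0.05 without vehicle tumor 12. Cdk1, the kinase of mitotic entry, was at -0.43 (standard error 0.22), Birc5 (survivin) at -0.37 (standard error 0.18), Top2a, a topoisomerase, at -0.43 (standard error 0.30) and Rrm2, of ribonucleotide reductase, at 0.35 (standard error 0.19). Cytosolic ribosomal proteins (22 of 63 above 0, median -0.11, but 0.09 without cinacalcet tumor 8) and oxidative phosphorylation (median 0.01, but 0.15 without cinacalcet tumor 8) had 1 gene each at an unadjusted p under 0.05, Rps4l and Cox8c, both lower. Of 370 Zfp zinc finger genes 9 were higher (2.43%) and 7 lower (1.89%), beside 1.66% and 1.16% of all genes.

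**Figure D4:**
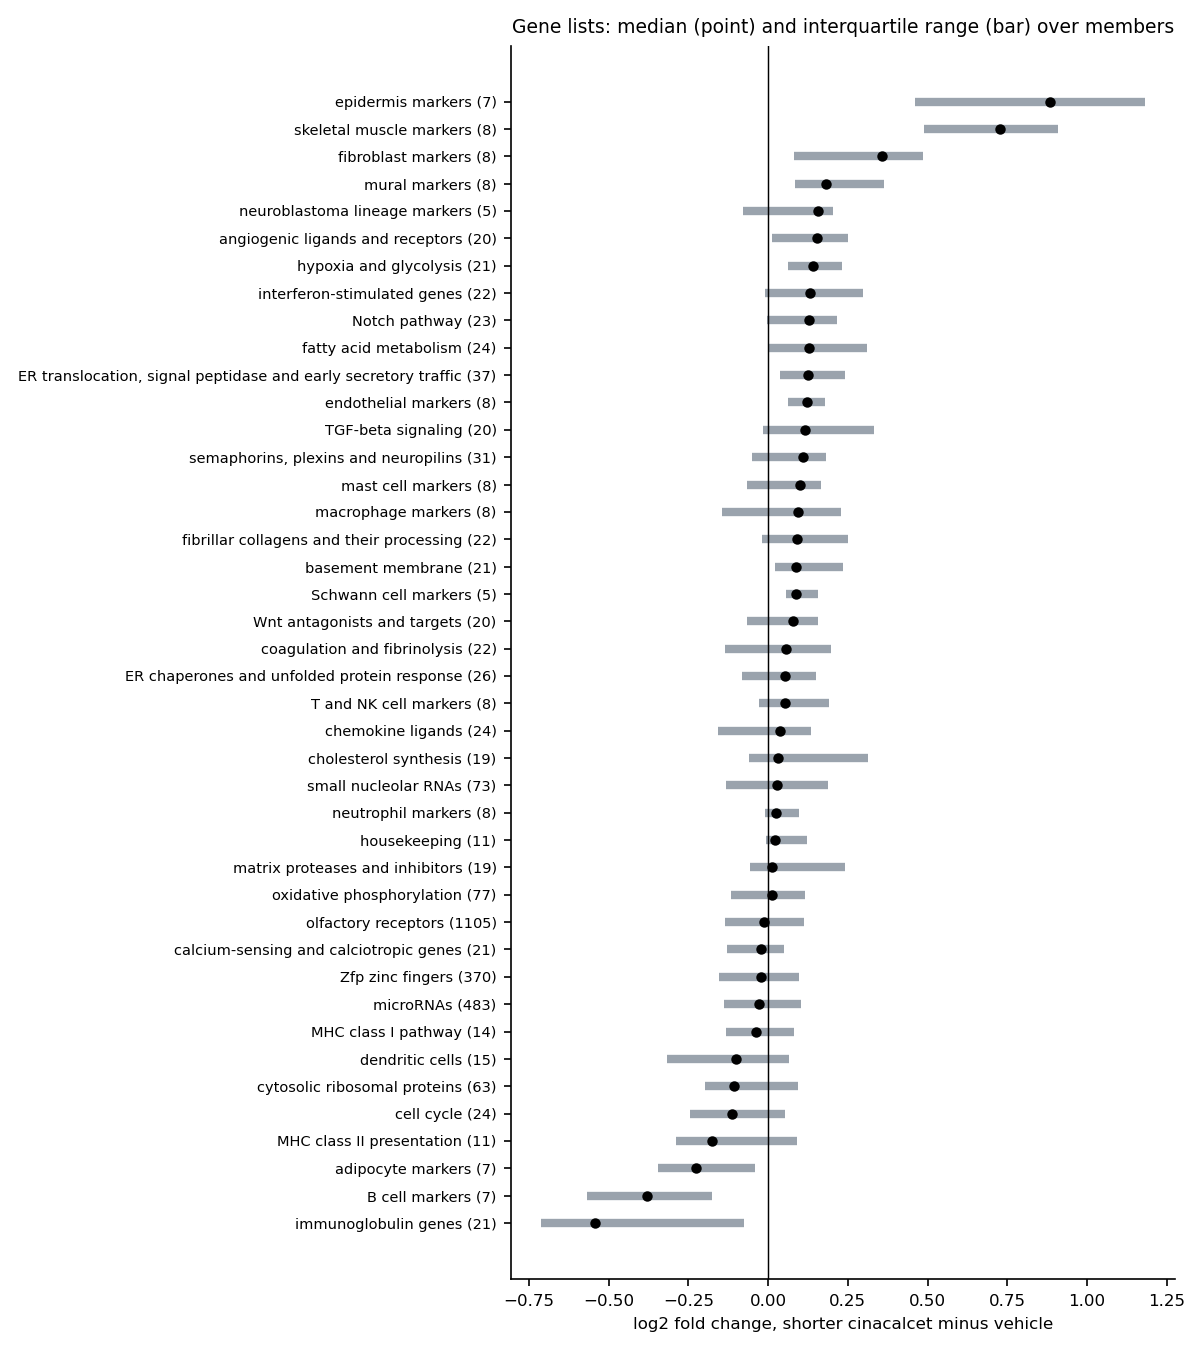
Median log2 fold change (point) and interquartile range over members (bar) on the x axis for each gene list on the y axis, with the number of genes measured in brackets, from the fit with no filter. Most medians lie close to 0, while epidermis (0.88) and skeletal muscle (0.73) are the highest and immunoglobulin genes (-0.54) and B cell markers (-0.38) the lowest.

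The lists farthest from 0 were those of tissues that lie beside a subcutaneous tumor and of lymphoid cells, and in each of them tumors of the same group lay far apart. Epidermal genes were high in cinacalcet tumors 5 and 7. Perp, a desmosomal protein of stratified epithelia, was at 4.99 and 4.54 in tumors 5 and 7, at 1.52 and 1.62 in tumors 4 and 8, and at 1.32 to 2.41 (median 1.62) in vehicle tumors. Its log2 fold change of 1.45 was the largest among the genes named on the higher side, and it was -0.15 with tumors 5 and 7 left out, an alternative added after seeing the data.

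Dmkn (dermokine, of the upper epidermis), Krt14 (the keratin of basal keratinocytes) and Dsp (desmoplakin) had the same 2 high tumors. Krt14 was at 3.71 and 4.32 in tumors 5 and 7, at 1.27 and 1.21 in tumors 4 and 8, and at 1.19 to 2.25 with vehicle. Dsp was at 4.48 and 3.95 in tumors 5 and 7 against 0.86 to 2.05. Without these tumors the values were -0.19 for Dmkn, -0.28 for Krt14 and -0.09 for Dsp. Tumors 5 and 7 were not alike in 3 further genes. Tchh and Krt71, of the inner root sheath of the hair, were at 6.20 and 6.19 in tumor 5 and at 1.09 and 0.46 in tumor 7, whereas Krt10, of differentiating epidermis, was at 6.52 in tumor 7 and 1.08 in tumor 5. These 3 genes were chosen after their values were seen. All 7 epidermis markers had a value above 0, 2 were higher (Krt14 and Dsp), the mean of the list was 1.20, 2.51, 3.87 and 1.39 in tumors 4, 5, 7 and 8 against 1.13 to 1.72 with vehicle, and the median of 0.88 was -0.15 without tumors 5 and 7.

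Skeletal muscle genes were high in cinacalcet tumor 7 and vehicle tumor 7, and less so in cinacalcet tumors 5 and 8. Neb, a giant protein of the thin filament, was at 1.65, 2.66, 4.63 and 2.72 in cinacalcet tumors 4, 5, 7 and 8, at 3.51 in vehicle tumor 7 and at 1.42 to 1.73 in the other vehicle tumors. Ttn, of the sarcomere, was at 3.94 in cinacalcet tumor 7 and 3.05 in vehicle tumor 7. Trdn, of the calcium release unit, was at 1.32, 2.53, 3.57 and 2.16 against 1.18 to 2.40, and Ankrd23, a stress-responsive muscle protein, at 1.83, 3.18, 3.68 and 3.25 against 1.51 to 2.998. Cinacalcet tumor 4 was near the vehicle median in both. All 8 muscle markers had values above 0, 2 were higher (Myh1 and Mylpf), and the mean of the list was 1.92, 2.72, 3.69 and 2.69 against 1.56 to 3.45 (median 1.85). The list median of 0.73 was 0.69 without both tumors numbered 7 and 0.35 without cinacalcet tumors 5 and 7. A further alternative, also added after seeing the data, took the epidermis and skeletal muscle scores as covariates. With them the log2 fold change of Ankrd23 went from 1.02 to 0.46 and that of Trdn from 0.93 to 0.18. Neb went from 1.11 to 0.06 and Ttn from 0.92 to 0.05. List medians went from 0.09 to 0.40 for fibrillar collagens, 0.36 to 0.77 for fibroblast markers and -0.04 to 0.43 for MHC class I. The part of adjacent skin and muscle in other genes was not tested beyond these alternatives.

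**Figure D5:**
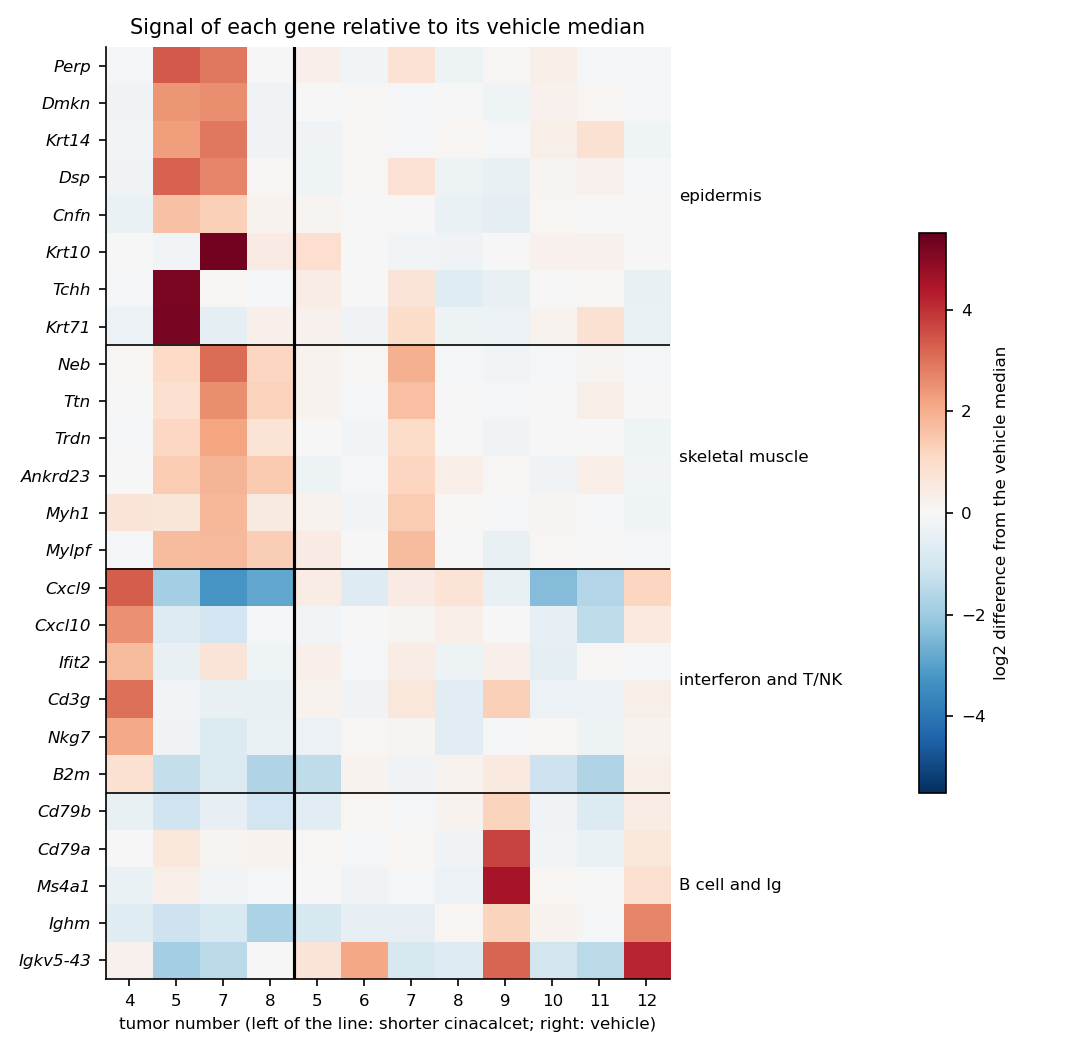
Signal of each gene (rows, grouped by tissue) minus its median over vehicle tumors, on the log2 scale as color (red higher, blue lower), in the 4 shorter cinacalcet tumors and the 8 vehicle tumors (columns). Epidermal genes are high in cinacalcet tumors 5 and 7, muscle genes in both tumors numbered 7, interferon and T cell genes in cinacalcet tumor 4, and B cell genes in vehicle tumor 9.

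Interferon and T cell genes were high in cinacalcet tumor 4 alone. The mean of 22 interferon-stimulated genes was 4.52 in tumor 4 and 2.76, 2.75 and 2.93 in tumors 5, 7 and 8, against 2.61 to 3.82 (median 3.12) with vehicle. None of the 22 was higher or lower at an unadjusted p under 0.05, and the list median of 0.13 was -0.33 without tumor 4. Cxcl9, a chemokine induced by interferon gamma, was at 10.25 in tumor 4 and at 5.06, 3.67 and 4.07 in tumors 5, 7 and 8, with vehicle tumors at 4.54 to 8.12 (median 6.93). Tumor 4 was thus above the vehicle range, tumors 7 and 8 below it and tumor 5 in its lower part. Cxcl10, of the same family, was at 5.17 in tumor 4 against 1.26 to 3.20.

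The 8 T and NK cell markers averaged 3.47 in tumor 4 and 2.26, 1.97 and 2.08 in tumors 5, 7 and 8, against 2.09 to 2.70. Of them 5 had a value above 0 and none was higher or lower. Their median was 0.05, and -0.19 without tumor 4. Among them Cd3g, of the T cell receptor complex, was at 5.73 in tumor 4 and at 2.29 to 2.56 in the other 3, against 2.08 to 4.02. Nkg7, of cytotoxic granules, was at 5.00 in tumor 4 against 2.33 to 3.12, whereas Cd3e had a log2 fold change of -0.31. The MHC class I list averaged 5.60 in tumor 4 and 3.60, 3.87 and 3.68 in tumors 5, 7 and 8, with vehicle at 3.51 to 5.05. B2m, its shared light chain, was at 11.10, 8.94, 9.47 and 8.58 against 8.60 to 10.78. In the interferon and MHC class I lists the treated tumors fell on both sides of the vehicle median. The MHC class I median of -0.04 was -0.51 without tumor 4. Cxcl9, Cxcl10, Cd3g and Nkg7 were described after their values were seen.

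B cell and immunoglobulin genes had medians below 0. Vehicle tumor 9 lay far above the rest in the mean of B cell markers, and vehicle tumors 12 and 9 in that of immunoglobulin genes. None of 7 B cell markers had a value above 0, 1 was lower at an unadjusted p under 0.05 (Cd79b, of the B cell receptor, at 2.63 to 3.31 against 2.99 to 4.98) and the median was -0.38, or -0.11 without vehicle tumor 9. That tumor held Cd79a at 5.62 and Ms4a1 at 5.84, and the highest mean of adipocyte markers (5.44, against 2.43 for the lowest vehicle tumor). Ighm was at 1.52, 1.06, 1.37 and 0.44 in cinacalcet tumors 4, 5, 7 and 8 and at 1.33 to 4.87 (median 2.19) in vehicle tumors, with the 2 highest values in vehicle tumors 12 and 9. Its log2 fold change was -1.39 (standard error 0.53), and the treated signals lay about the level of silent genes, which limits what the size of this value can say. Of 21 immunoglobulin genes 3 had a value above 0 and none was at an unadjusted p under 0.05, and the median of -0.54 was -0.19 without vehicle tumor 12. Igkj1, a kappa joining segment, was at 4.30 in vehicle tumor 9 and 4.12 in vehicle tumor 12 and stood at 1.27 to 1.67 in the treated tumors.

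Macrophage markers had a median of 0.09, which was -0.43 without cinacalcet tumor 4, and Csf1r, the receptor of the macrophage growth factor, was at 6.74, 5.10, 6.40 and 5.15 against 4.49 to 6.60. Neutrophil markers had list means of 1.25 to 1.75 in treated tumors and of 1.20 to 1.74 with vehicle. Mast cell markers averaged 1.48 to 1.73 in treated tumors and 1.30 to 2.27 with vehicle, where tumor 9 was the highest. Dendritic cell genes had Zbtb46, a factor of conventional dendritic cells, higher (0.31) and Siglech lower, and a median of -0.10, which was -0.20 without cinacalcet tumor 8 and -0.03 without vehicle tumor 9. The 5 Schwann cell markers measured had a median of 0.09, which was -0.08 without cinacalcet tumor 4, and 4 of them lay above 0. Of these Erbb3, the neuregulin receptor, was the 1 higher, at 1.86, 2.19, 1.65 and 1.16 against 1.001 to 1.41. Its lowest treated signal lay inside the vehicle range, and all were within the reach of single silent genes or not far above it. Housekeeping genes (8 of 11 above 0) had a median of 0.02, which was 0.11 without vehicle tumor 12. Ywhaz was at 0.12, Pgk1 at 0.12 and Tbp, the reference gene of many RT-qPCR assays, at 0.02. The lowest member was B2m, at -0.34, and -0.86 without cinacalcet tumor 4.

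Cinacalcet tumor 6 moved some of these values when it was added to the shorter group. Those of Adgrl2 (0.76), Jag1 (0.9997) and Nrp2 (0.70) were then larger, and those of Perp (1.11), Hmgcs1 (0.39), Prrx2 (-0.54) and Ptprk (0.54) smaller in size. None of these genes passed after adjustment in either setting. Ppp3ca, the catalytic subunit of calcineurin, is a last gene whose groups did not overlap, at 5.21, 5.23, 5.52 and 5.22 against 4.29 to 5.17, and it was also picked after its values were seen (log2 fold change 0.54, in the fit with no filter).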

How the data were processed

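Murine Gene 2.1 ST arrays of 12 tumors were compared, 4 of shorter cinacalcet treatment and 8 of vehicle, with treatment length taken from the study's description of the tumors. The authors deposited log2 signals made with RMA. R 3.2 and limma 3.24 are given in the submitters' processing notes. No array was normalized again. Of 40543 probe sets, 23448 name 1 gene in the platform annotation, 1619 name several and 15476 are unnamed here. Entrez identifiers matched RefSeq for 23255 single-gene probe sets and changed 0 symbols. As the methods remove low signal and low variability, the lower 50% by mean over the 15 arrays other than cinacalcet tumor 6 were dropped first, and of what remained the lower 50% by SD. The 10135 left (5293 single-gene) were tested with limma 3.58.1 in R 4.3.3, with Benjamini-Hochberg adjustment over all 10135. The fit was checked on simulated data. Tables were made in Python 3.11.15 with pandas 2.3.3.

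The members and gene lists were chosen with earlier results of these data known. The genes named are the 12 higher and 12 lower of smallest p and the 6 higher and 6 lower of largest fold at an unadjusted p under 0.05 among kept single-gene probe sets, gene models and clone names left out, up to 4 genes of smallest p from each list described, and the genes the study named from the murine arrays or measured by RT-qPCR. Others are said to be chosen after their values were seen. The RT-qPCR genes are those of the list described above, which leaves out Cd68. Lists were read with no filter, as counts and medians beside those of all genes. P-values refer to the spread between separate tumors, and precision is limited by how many arrays there are. Alternatives to the filter, normalization, variance model and samples were run, as the closing section gives.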

Additional observations from a re-analysis of the deposited data

Results flagged for a closer look

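Single tumors stood far from the rest of their group (Dixon's criterion) in 24 of 224 groups of signals or list means examined, where chance flags about 1 in 20 groups. Genes chosen after their values were seen are among them, and some were chosen because 1 tumor stood apart, so the count is no measure of how often this happens.

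Cinacalcet tumor 4 was the high one for the means of interferon-stimulated genes (4.52), MHC class I genes (5.60), chemokine ligands (4.95) and dendritic cell genes (2.86), and for Cd3g (5.73) and Gdf3 (3.07). Cinacalcet tumor 5 was the high one for Tchh (6.20) and Krt71 (6.19), of the hair follicle. Cinacalcet tumor 7 was the high one for Krt10 (6.52), Tie1 (5.06), Ppp3ca (5.52) and Arrdc3 (6.03). Cinacalcet tumor 8 was the low one for Snora31 (2.67).

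Among vehicle tumors, tumor 7 was the high one for Neb (3.51), Ttn (3.05), Ankrd23 (2.998), Trdn (2.40) and the mean of skeletal muscle markers (3.45). Vehicle tumor 9 was the high one for the means of B cell (4.21), dendritic cell (3.53), mast cell (2.27) and adipocyte markers (5.44) and for Cd79a (5.62). Vehicle tumor 5 was the high one for Krt10 (2.17), which is far below the 6.52 of cinacalcet tumor 7.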

How the results depend on the processing

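For shorter cinacalcet against vehicle, no alternative gave a single-gene probe set an adjusted p under 0.05, and limma's count of 0 became 1 (lower) only with no moderation of the variances. Of probe sets whose unadjusted p was at most 0.01 there were 44, against 238 with no filter (149 higher and 89 lower), 99 with the filter on mean signal only, 6 with single-gene probe sets only, 82 with the host score as a covariate (34 higher and 48 lower) and 111 with the replicate block. Leaving out single tumors gave 26 (without cinacalcet tumor 5) to 71 (without cinacalcet tumor 4), and 0 to 0 after adjustment. The 259 at an unadjusted p under 0.05 became 1430 with no filter (793 higher and 637 lower), 628 with the filter on mean signal only, 76 with single-gene probe sets only, 428 with the host score and 410 with the replicate block, and ranged from 214 to 316 as single tumors were left out. Fewer or more probe sets tested is part of the first 3 of these settings, and for the others the cause was not tested. The count of 0 for prolonged against shorter tumors ranged from 0 to 28 (without prolonged tumor 10).

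The log2 fold changes of Perp (-0.15), Dmkn (-0.19), Krt14 (-0.28) and Dsp (-0.094) turned when cinacalcet tumors 5 and 7 were left out, an alternative chosen after seeing the data. Of 5899 values of named genes under alternatives, 5755 lay within 1 vehicle SD of the reported value and 140 further off, and the 4 above turned with an unadjusted p under 0.05 before or after. Whatever the p, the sign differed in 112 of the 5899, over 49 of 212 probe sets. Among them were Krt71 (1.02, but -0.33 without cinacalcet tumor 5), Krt10 (1.25, but -0.09 without both tumors numbered 7) and Cxcl9 (-0.88, but 0.52 without cinacalcet tumors 5 and 7). Of 853 list medians under alternatives, 17 moved by more than the replicate spread, and 28 of 45 lists changed sign without 1 tumor. Genes and lists that make up the epidermis and muscle scores were not read with those scores as covariates. Lists were already read with no filter, so that alternative gives their main values.

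The labels number tumors 5, 7 and 8 in both groups. The deviations of same-numbered tumors from their group means correlated at 0.30, -0.08 and -0.19. By this measure the closest vehicle tumor was number 5 for cinacalcet tumor 5, number 6 for tumor 7 and number 11 for tumor 8. So few correlations cannot decide whether the tumors were paired. The paper's methods describe no pairing, and the main fit used none. The median residual SD was 0.57 on the log2 scale. Signals near the mean silent level of 0.87 to 1.13, or within the reach of single silent genes above it, limit what can be read for low genes.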
